A study of Mus musculus with 6 samples.

Results

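Genes of the Aldh1a enzymes and of the retinoic acid pathway were followed in mouse lung buds. The buds were with or without a conditional deletion of the histone deacetylase genes Hdac1 and Hdac2. The 10 genes are the aldehyde dehydrogenases Aldh1a7, Aldh1a1, Aldh1a2 and Aldh1a3, the retinoic acid receptors Rara, Rarb and Rarg, the retinol uptake receptor Stra6 and the cellular retinoic acid binding proteins Crabp1 and Crabp2. They were selected by name from the retinoic acid pathway, and were chosen on the difference between DKO and control arrays as well, because Aldh1a7 was known to be far lower in the DKO buds. All 10 had a probe set of their own, 1 each, among the 19938 genes measured. Values of the 10 genes in this contrast are therefore a description, with no test. Lung buds came from E11.5 mouse embryos (the number is the age in days after conception) on a mixed C57BL/6 and 129X1,129S1 background. The 3 control samples carried Shhcre, a Cre recombinase expressed from the Sonic hedgehog locus, which is active in lung epithelium and not in the surrounding mesenchyme. The 3 DKO samples carried Shhcre and were homozygous for loxP-flanked alleles of both deacetylase genes (Hdac1fl/fl; Hdac2 fl/fl), so Cre was present in both groups. Whether the RNA of a sample came from a single embryo or a pool is not stated. Each SD given is the spread between these samples. Each SE and interval is from the limma fit, which draws a gene's variance towards that of the other genes, and so is not that spread alone.

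Retinoic acid is a small lipid signal made from vitamin A. Cells take up retinol, oxidise it to retinaldehyde, and oxidise that to retinoic acid with enzymes of the Aldh1a group. Retinoic acid then enters the nucleus and binds a retinoic acid receptor paired with a retinoid X receptor on a pair of short DNA half-sites. Without ligand the pair holds corepressor complexes that contain histone deacetylases, and with ligand it exchanges them for coactivators. In the foregut, retinoic acid made mainly by Aldh1a2 in the mesoderm is needed for the lung bud to form, in part through Fgf10, and its signal is lowered in the distal buds as they begin to branch.

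Each array gave 1 normalised log2 expression value per probe set. The array medians lay between 7.87 and 7.89 and the arrays correlated at r of 0.995 to 0.999 over all genes. DKO 2 stood farthest from its group mean, with a standard deviation of 0.105 over all genes against 0.0596 to 0.0645 in the controls and 0.0867 and 0.0705 in DKO 1 and DKO 3. Lung identity genes were bright on all arrays. The lung and thyroid factor Nkx2-1 was 10.53 to 10.60 in the controls and 10.20 to 10.44 in the DKO samples. Its log2 difference was -0.19 (SE 0.07, limma, adjusted p = 0.299). The lung mesenchyme factors Tbx4 and Foxf1 lay between 11.36 and 12.77. Of the targeted genes, Hdac1 was 11.48, 11.49 and 11.52 in the controls and 11.20, 11.23 and 11.23 in the DKO samples, a log2 difference of -0.28 (SE 0.05, limma, adjusted p = 0.0193). The Hdac1 call did not hold when a control, DKO 1 or DKO 3 was left out (adjusted p = 0.0517 to 0.112). Hdac2 was 11.83, 11.69 and 11.81 in the controls and 11.74, 11.77 and 11.70 in the DKO samples, and the groups overlapped (-0.04, SE 0.06, adjusted p = 0.845). The position of these probes relative to the deleted exons is not known here, so they may not check the genotype, and cells outside the Shhcre domain keep both genes.

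Promoter sequences are shown for 3 of the genes, because they show how 2 of the enzymes are related and how a receptor gene carries the binding site of its own protein class. The sequences are the 250 bases before the annotated start, from RefSeq on GRCm38.p6, read 5′ to 3′ on the gene's strand. The arrays' own annotation names no build, so these positions describe the genes and not the probes. Windows of 300 bases around the start were found for 8 of the 10 genes (16 windows), and Aldh1a3 and Crabp2 had none. Aldh1a1 and Aldh1a7 lie near each other on chromosome 19, in opposite orientations, next to each other among the genes measured but with 3 other annotated genes between them, and Aldh1a7 is a rodent copy closely related to Aldh1a1. The Aldh1a1 window is the second of its 2 annotated starts, at chr19:20601718-20601967 on the plus strand, and the Aldh1a7 window lies at chr19:20727557-20727806 on the minus strand. Capitals mark their longest shared run, 65 bases that are identical in both.
Aldh1a1: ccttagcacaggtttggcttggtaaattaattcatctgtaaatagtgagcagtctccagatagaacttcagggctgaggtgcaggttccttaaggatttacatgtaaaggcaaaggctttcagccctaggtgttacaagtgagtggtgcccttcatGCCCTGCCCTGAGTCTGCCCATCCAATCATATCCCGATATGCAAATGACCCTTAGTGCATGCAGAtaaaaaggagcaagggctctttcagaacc
Aldh1a7: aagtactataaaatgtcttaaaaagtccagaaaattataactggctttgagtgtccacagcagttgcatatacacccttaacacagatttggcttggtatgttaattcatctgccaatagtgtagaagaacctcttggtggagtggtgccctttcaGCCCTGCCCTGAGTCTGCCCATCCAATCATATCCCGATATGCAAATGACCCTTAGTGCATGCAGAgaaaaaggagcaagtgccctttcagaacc

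The shared run lies 94 to 30 bases before the start in both genes. Over a global alignment of the 250 bases, 173 of 235 aligned bases (73.6%) were identical. The other annotated Aldh1a1 start, far upstream, matched the Aldh1a7 window at 138 of 229 aligned bases (60.3%), and its longest shared run was 8 bases. Sequences this alike can also share probe bases further into the gene, and how far the 2 probe sets cross-hybridise was not tested.

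The Rarb window is shown because it holds a pair of retinoic acid half-sites. The half-sites searched were AGGTCA or AGTTCA or GGGTCA or GGTTCA, on both strands, as 2 half-sites in the same direction with 1, 2 or 5 bases between them. The window lies at chr14:16575477-16575726 on the minus strand, and capitals mark the 2 half-sites.
Rarb: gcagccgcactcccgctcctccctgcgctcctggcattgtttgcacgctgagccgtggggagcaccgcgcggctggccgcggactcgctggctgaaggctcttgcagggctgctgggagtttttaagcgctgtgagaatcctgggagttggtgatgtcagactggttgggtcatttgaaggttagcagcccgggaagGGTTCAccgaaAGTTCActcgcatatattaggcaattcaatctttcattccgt

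The repeat, GGTTCA and AGTTCA with 5 bases between them, lies 53 to 37 bases before the Rarb start. It is the site through which retinoic acid is known to raise Rarb, a textbook target of its own ligand. Of all 32851 promoter windows of 300 bases, 32 (0.0974%) held a repeat with 5 bases between the half-sites. A spacing of 1 base was found in 73 windows (0.222%) and of 2 bases in 88 (0.268%). None of the other 15 windows of the 10 genes held any of the 3 spacings. A match is a description of these letters and not a measured site.

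Aldh1a7 and Aldh1a1 were both lower in every DKO sample than in any control sample. Aldh1a7, whose protein is a cytosolic aldehyde dehydrogenase reported to act poorly or not at all on retinaldehyde, was 8.84, 9.03 and 8.95 in controls 1 to 3 and 6.52, 6.51 and 6.36 in DKO 1 to 3. The group means were 8.94 ± 0.09 and 6.47 ± 0.09 (SD, n = 3), a log2 difference of -2.47 (SE 0.07, 95% interval -2.63 to -2.32), or 5.55-fold. Its difference was the lowest of all 19938 genes. The 3 DKO values lay within 0.16 of each other, and so the spread within each group was small beside the gap.

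Aldh1a1, a retinaldehyde dehydrogenase found in many epithelia, was 7.27, 7.52 and 7.25 in the controls and 6.56, 6.48 and 6.68 in the DKO samples. The means were 7.35 ± 0.15 and 6.57 ± 0.10 (SD, n = 3), a log2 difference of -0.78 (SE 0.08, interval -0.96 to -0.59), or 1.71-fold. The groups were again separate, with the lowest control 0.58 above the highest DKO sample. Both genes were dim in the DKO buds. The mean levels of 1015 olfactory receptor genes, which lung does not express, had a median of 5.27 and a 95th percentile of 7.01, and the DKO values of both genes lay under that percentile while all their control values lay above it. Where a level is this near the array's floor, the array can shorten the difference.

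Aldh1a2, the main retinoic acid producing enzyme of embryonic mesoderm, was bright and its groups overlapped. It was 10.89, 10.70 and 10.80 in the controls and 10.73, 10.69 and 10.79 in the DKO samples, a log2 difference of -0.06 (SE 0.06, interval -0.20 to 0.08). Aldh1a3, the third retinaldehyde dehydrogenase, was 7.48, 7.38 and 7.28 in the controls and 7.36, 7.53 and 7.45 in the DKO samples, a difference of 0.07 (SE 0.07, interval -0.09 to 0.22), and its groups overlapped as well. Within the Aldh1a group the 2 genes on chromosome 19 were thus lower, Aldh1a7 by 5.55-fold and Aldh1a1 by 1.71-fold. How far their probe sets cross-hybridise was not tested, so the 2 falls may not be separate. The intervals of Aldh1a2 and Aldh1a3 reached no lower than -0.20 on the log2 scale. Aldh1a3, at 7.28 to 7.53, lay just above the olfactory receptor percentile of 7.01, so the array can shorten a fall in it.

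**Figure D1:**
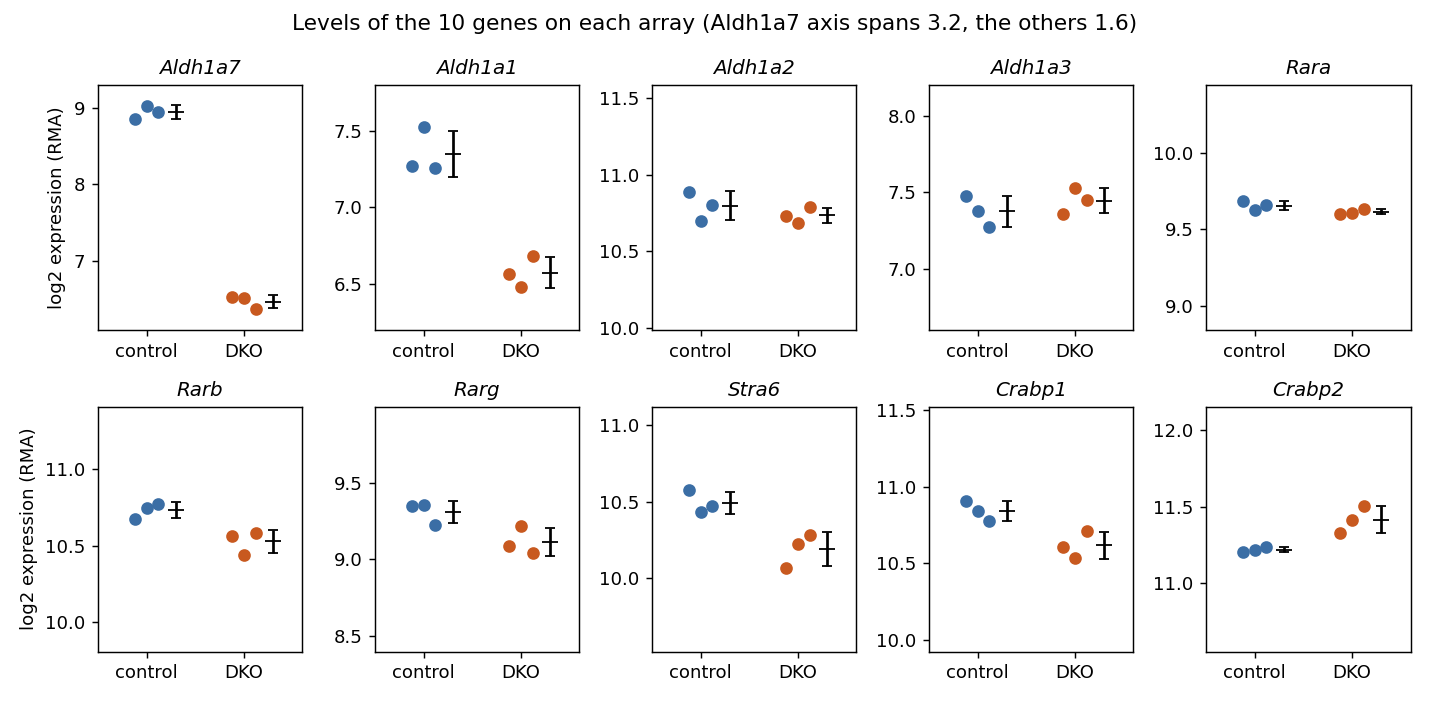
Log2 expression of the 10 genes (y axis, RMA values) on the 3 control arrays (blue points) and the 3 DKO arrays (orange points), with the mean and SD of each group as a black bar to the right. Aldh1a7 and Aldh1a1 show the widest gaps between the groups, at -2.47 and -0.78, and Aldh1a2, Aldh1a3 and Rara overlap between the groups.

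The receptor and carrier genes differed far less. Rarb was 10.68, 10.75 and 10.77 in the controls and 10.56, 10.44 and 10.58 in the DKO samples, a log2 difference of -0.20 (SE 0.06, interval -0.34 to -0.07). All its DKO values lay below all its control values, by 0.09 at the closest. Rarg, the receptor of skin and cartilage precursors, was 9.35, 9.35 and 9.22 in the controls and 9.09, 9.21 and 9.04 in the DKO samples, a difference of -0.19 (SE 0.06, interval -0.34 to -0.05). The groups were separate by less than 0.01, between control 3 and DKO 2. Rara, the broadly expressed receptor, was 9.68, 9.62 and 9.66 in the controls and 9.60, 9.61 and 9.63 in the DKO samples, a difference of -0.04 (SE 0.05, interval -0.15 to 0.07), and the groups overlapped.

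Stra6, the membrane receptor that takes up retinol from its carrier in blood, was 10.57, 10.43 and 10.47 in the controls and 10.07, 10.23 and 10.28 in the DKO samples. Its log2 difference was -0.30 (SE 0.07, interval -0.46 to -0.15), and DKO 1 was the lowest sample. Crabp1, which binds retinoic acid in the cytoplasm and is linked to its breakdown, was 10.91, 10.84 and 10.78 in the controls and 10.61, 10.54 and 10.71 in the DKO samples, a difference of -0.22 (SE 0.06, interval -0.36 to -0.08). Crabp2, which carries retinoic acid to the nuclear receptors, went the other way. It was 11.20, 11.22 and 11.23 in the controls and 11.33, 11.41 and 11.502 in the DKO samples, a difference of 0.19 (SE 0.06, interval 0.06 to 0.32). The groups of Stra6, Crabp1 and Crabp2 did not overlap, and the 2 binding proteins thus stood on opposite sides of their controls.

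Seen together, 8 of the 10 genes had a difference below 0 and 2 above, with a median of -0.20, where the median over all 19938 genes was 0.00. The control and DKO values did not overlap for 7 of the 10, with DKO below for 6 and above for 1. The same held for 18.8% of all genes, with DKO below for 10.4% and above for 8.36%. In the limma fit across all genes, 2 of the 10 passed an adjusted p of 0.05 and were lower, Aldh1a7 and Aldh1a1, and 0 were higher. The background was 2.41% of all genes called, 1.38% lower and 1.03% higher. Stra6 passed as well without DKO 2, which made 3 of 10. Since this contrast chose the genes, nothing is read from any of these counts.

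The lower levels of Aldh1a7 and Aldh1a1 went together with lower levels of lung epithelial genes. Of 28 epithelial markers measured, 16 fell and 0 rose, and their mean log2 level was 9.59 to 9.66 in the controls and 9.03 to 9.18 in the DKO samples, a difference of -0.50. Their lowest difference was -2.37 (the surfactant gene Sftpc) and their median -0.40. The epithelial adhesion gene Epcam stood at -0.50 (SE 0.06, adjusted p = 0.00428). The falls were uneven. Of the 28, 12 were not called, among them Cdh1 at -0.22, Nkx2-1 at -0.19, Sox9 at -0.15 and Cldn7 at -0.07. The 2 markers above 0 were Krt19 at 0.08 and Id2 at 0.06, neither of them called. In whole buds, fewer epithelial cells and less RNA per cell cannot be told apart. The mean level of 22 mesenchymal markers overlapped between the groups, at 10.32 to 10.36 in both, with 2 rises and 2 falls. The rises include Hoxb5, which with Hoxa5 and Tbx5 is also on the list of retinoic acid responsive genes given below. Gata4 of the stomach and oesophagus list and Ret of the neural list are on it too. The 13 mesothelial markers, a list that includes Aldh1a2 itself, had 3 rises and 0 falls and a mean level of 8.87 to 8.90 in the controls and 9.10 to 9.15 in the DKO samples.

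Smooth muscle markers were also lower, with 6 of 9 falling, 1 rising and a mean level of 9.51 to 9.62 in the controls and 9.14 to 9.30 in the DKO samples. The 9 liver markers had 1 rise and a mean level of 7.32 to 7.47 in the controls and 7.49 to 7.78 in the DKO samples. The 12 cardiac markers had 1 rise (8.06 to 8.13 against 8.28 to 8.38), and the 12 leukocyte markers had none called and lower mean levels in all DKO samples (8.17 to 8.25 against 8.01 to 8.11). None of the 14 endothelial, 10 stomach and oesophagus, 10 erythroid and 8 neural markers was called, and their mean levels overlapped between the groups. An unadjusted p under 0.05 was found for 2, 0, 3 and 3 of them, against 2559 of all 19938 genes. Differences above 0 were found for 13, 6, 8 and 3 of them, against 9995 of all genes, so the endothelial and erythroid lists leaned above 0. For the smooth muscle, liver, cardiac and leukocyte lists, 9, 3, 6 and 6 markers had an unadjusted p under 0.05. The part of these marker lists in the differences of the 10 genes was not tested.

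**Figure D2:**
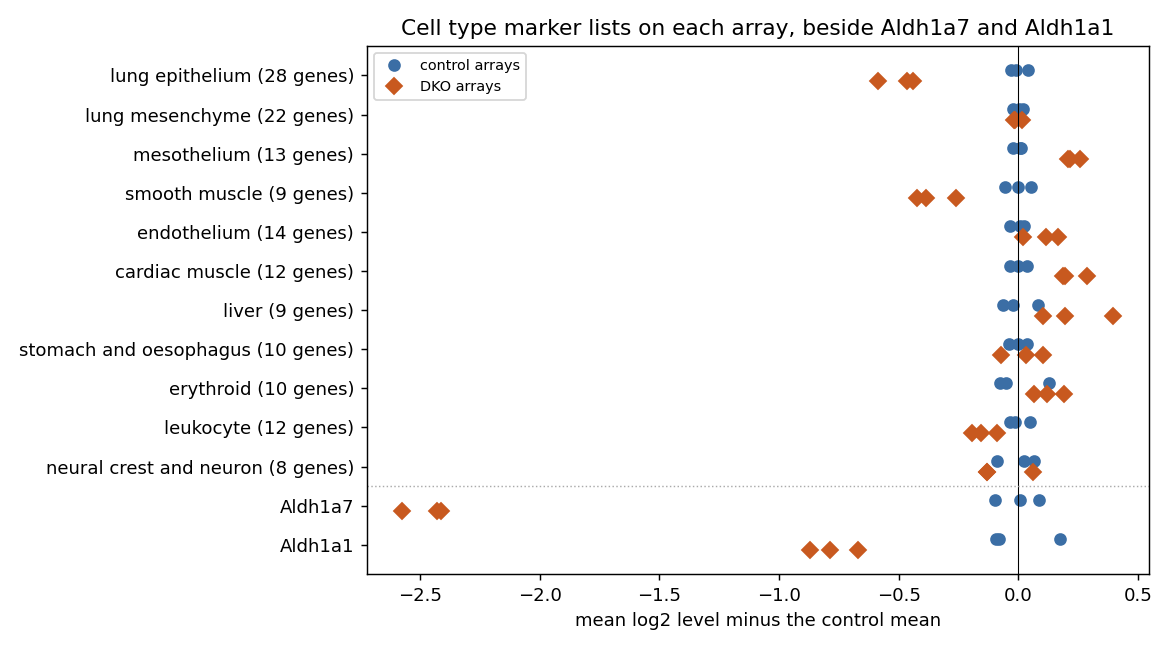
Mean log2 level of each cell type marker list on each array, and the level of Aldh1a7 and Aldh1a1, all minus the mean of the 3 control arrays (x axis, log2). Blue circles are control arrays and orange diamonds DKO arrays. The epithelial list lies at -0.50 in the DKO samples on average, Aldh1a1 at -0.78 and Aldh1a7 at -2.47.

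The genes nearest in profile to Aldh1a7 and Aldh1a1 are given as a description. Likeness was the mean absolute difference over the 6 arrays between 2 genes' values, each minus the gene's own control mean. It follows mainly the size of the difference between the groups, by which Aldh1a7 was chosen, so it returns other genes of large fall by construction. The nearest to Aldh1a7 was Sftpc, a surfactant gene of distal epithelial cells, at 0.19. It fell by 2.37 (SE 0.18, adjusted p = 0.000354), and its values varied more than those of Aldh1a7, from 9.43 to 10.03 in the controls and from 7.04 to 7.62 in the DKO samples. Then came Cldn18, a claudin gene of lung and gastric tight junctions (likeness 0.36, difference -1.77), the cholecystokinin receptor gene Cckar (0.52, -1.47), the unconventional myosin gene Myo5c (0.58, -1.35) and Ttc6 (0.59, -1.30), with adjusted p of 1.11e-05 to 0.000169. Beyond Sftpc, these genes fell by at least 0.70 less than Aldh1a7 on the log2 scale.

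The 3 genes nearest to Aldh1a1 were Mpzl2, an epithelial adhesion gene (likeness 0.05, difference -0.86), Mia (0.08, -0.75) and the chloride channel gene Clic6 (0.08, -0.89), with adjusted p of 0.00338, 0.00246 and 0.000849. Like Aldh1a1, all 3 had their highest control value in control 2, which choosing by likeness over the same arrays favours. Aldh1a7 was highest in that control as well.

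**Figure D3:**
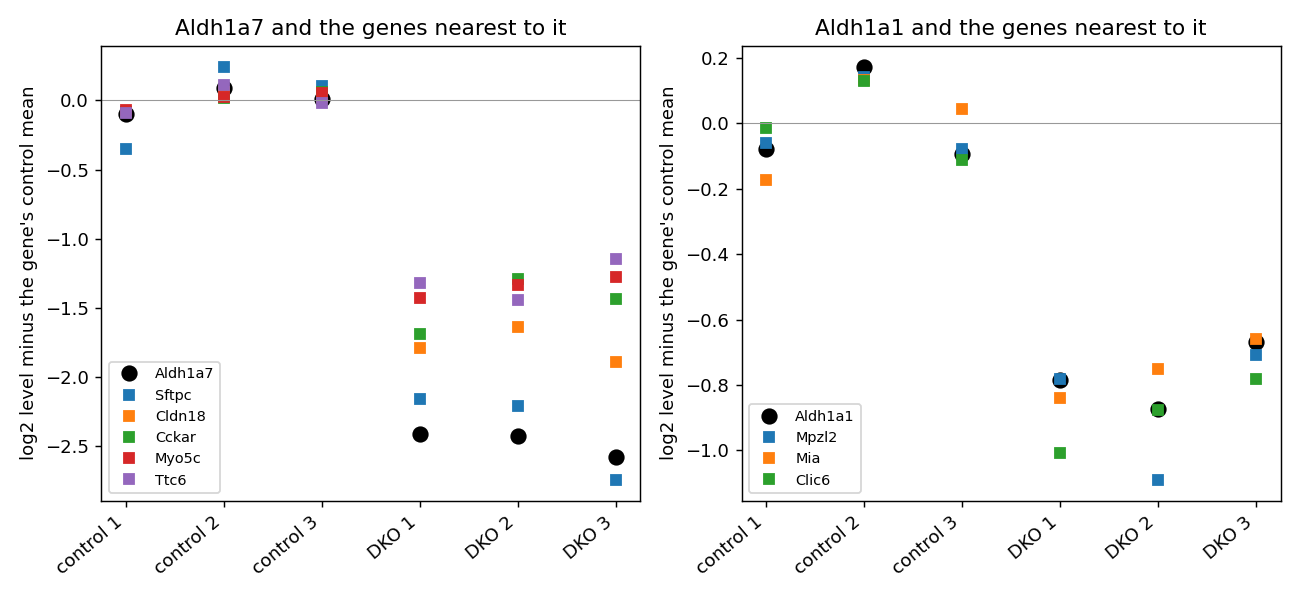
Log2 levels of Aldh1a7 (left) and Aldh1a1 (right) on each array as black circles, with the 5 and 3 genes nearest to them as coloured squares, each minus the gene's own control mean (y axis). Sftpc, whose fall was nearest in size, has a likeness of 0.19 to Aldh1a7, and the 3 genes beside Aldh1a1 lie within 0.08 of it on average.

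The measured genes beside the pair on chromosome 19 did not pass the test. On the Aldh1a1 side these were 1500015L24Rik (-0.03, adjusted p = 0.889), Anxa1, which encodes the phospholipid-binding protein annexin A1 (-0.08, adjusted p = 0.634), and the nuclear receptor gene Rorb (0.09, adjusted p = 0.524). On the Aldh1a7 side they were Tmc1, a channel gene of inner ear hair cells (-0.11, adjusted p = 0.535), Zfand5 (-0.14, adjusted p = 0.250) and the guanine deaminase gene Gda (-0.01, adjusted p = 0.961). The SEs were 0.05 to 0.06. The DKO values of Tmc1 and Zfand5 lay below their control values, those of Rorb lay above, and the other three overlapped. 1500015L24Rik, Anxa1, Tmc1 and Gda were dim, under the 95th percentile of the olfactory receptor genes on all arrays (1500015L24Rik at 5.26 and Tmc1 at 5.95 in the control mean), so a drop in them may not be visible. Rorb, at 7.26, lay just above that percentile, and Zfand5, at 10.46, was bright.

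Among genes that handle retinol and retinoic acid upstream and downstream of the Aldh1a enzymes, limma called 0 of 26 measured. An unadjusted p under 0.05 was found for 2, against 2559 of all 19938 genes. The median difference of the 26 was -0.01. The largest value was that of Lrat, which stores retinol as esters. It was 8.07, 7.85 and 7.82 in the controls and 9.30, 8.44 and 8.21 in the DKO samples, a log2 difference of 0.74 (SE 0.23, interval 0.21 to 1.27, adjusted p = 0.182), with DKO 1 far above the others. Without DKO 1 it was 0.41 (adjusted p = 0.0899). All 3 DKO values lay above the controls, but their SD of 0.58 was large beside the 0.14 of the controls.

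Adh1, an alcohol dehydrogenase that can oxidise retinol, was 10.98, 11.06 and 11.08 in the controls and 11.52, 11.36 and 11.02 in the DKO samples (0.26, SE 0.11, adjusted p = 0.357). DKO 3 lay within the control range, and without it the difference was 0.40 (adjusted p = 0.0403). The retinol carrier gene Rbp4 stood at 0.12 (SE 0.07, adjusted p = 0.571). Rdh10, the retinol dehydrogenase that supplies retinaldehyde in the embryo, was at -0.11 (SE 0.06, adjusted p = 0.533), and Dhrs3, which reduces retinaldehyde back to retinol and is raised by retinoic acid, at -0.01 (SE 0.05, interval -0.12 to 0.10, adjusted p = 0.972). Of the enzymes that break down retinoic acid, Cyp26a1 was at -0.03 and Cyp26b1 at -0.01 (adjusted p = 0.918 and 0.965), and Cyp26c1 at -0.11 (adjusted p = 0.677). Cyp26a1 was 6.18 to 6.33 on all arrays, under the olfactory receptor percentile of 7.01, so its difference says little about its expression. Rdh10, Dhrs3 and the Cyp26 genes are outside the naming rule and are given because they are the central enzymes of the route.

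Of 10 measured partners of the receptors, limma called 0, and the median difference was 0.01. An unadjusted p under 0.05 was found for 1, against 2559 of all 19938 genes. The coactivator gene Ncoa1 stood at 0.14 (SE 0.05, adjusted p = 0.274), the retinoid X receptor gene Rxra at -0.06 (SE 0.06, adjusted p = 0.779) and the corepressor gene Nrip1 at 0.06 (SE 0.05, adjusted p = 0.736). Rxrb and Rxrg, the other retinoid X receptors, stood at -0.05 and -0.02. The largest of these differences, in size, was 0.14.

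Of 28 measured genes known to respond to retinoic acid, 5 rose (1.03% of all genes did) and 0 fell. An unadjusted p under 0.05 was found for 13, against 2559 of all 19938 genes. The median of the 28 was 0.08, with 23 above 0. The DKO values lay wholly above the control values for 14 of them, against 8.36% of all genes, and wholly below for 2. The list was not sorted into genes that retinoic acid raises and genes it lowers, so these counts do not show a change in its signal. Its Hox genes were each counted, and whether they vary together was not tested. Fgf10, the mesenchymal growth factor of budding, was 9.03, 9.14 and 9.14 in the controls and 10.44, 10.11 and 9.91 in the DKO samples (1.05, SE 0.12, adjusted p = 0.00236). Dkk1, a secreted Wnt inhibitor, was 7.82, 7.80 and 7.86 in the controls and 8.40, 8.65 and 8.57 in the DKO samples (0.72, SE 0.07, adjusted p = 0.00128). Both rose in all 3 DKO samples, and their calls held when any 1 array was left out but not with ordinary least squares (adjusted p = 0.165 and 0.116). Both were known from earlier results to have risen when the list was written.

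The other 3 were Hox genes, which set position along the body axis. Hoxb1 was 8.60, 8.54 and 8.59 in the controls and 8.87, 9.14 and 9.27 in the DKO samples (0.52, SE 0.09, adjusted p = 0.0229). Hoxb5 rose by 0.36 (SE 0.07, adjusted p = 0.0252) and Hoxa4 by 0.32 (SE 0.06, adjusted p = 0.0197). These 3 calls were less firm: without any 1 of the controls all 3 were lost (adjusted p = 0.0836 to 0.127), and the count of 5 became 2. Hoxb1 and Hoxa4 were also lost without DKO 3 (0.0577 and 0.0764) and Hoxb5 without DKO 1 (0.0516). Of the 23 genes not called, the lowest was the receptor tyrosine kinase gene Ret of the enteric nervous system, at -0.28 (SE 0.08, adjusted p = 0.130). Tgm2, a transglutaminase long used as a readout of retinoic acid, stood at -0.12 (SE 0.07, adjusted p = 0.535) with all DKO values below the controls, and was named after its value was seen. The list thus leaned above 0, with 23 genes above and 5 below. It was written with earlier results of these data known, so the lean describes only the genes placed on this list. Rarb and Dhrs3, described above as raised by retinoic acid, were placed on other lists and stood at -0.20 and -0.01.

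**Figure D4:**
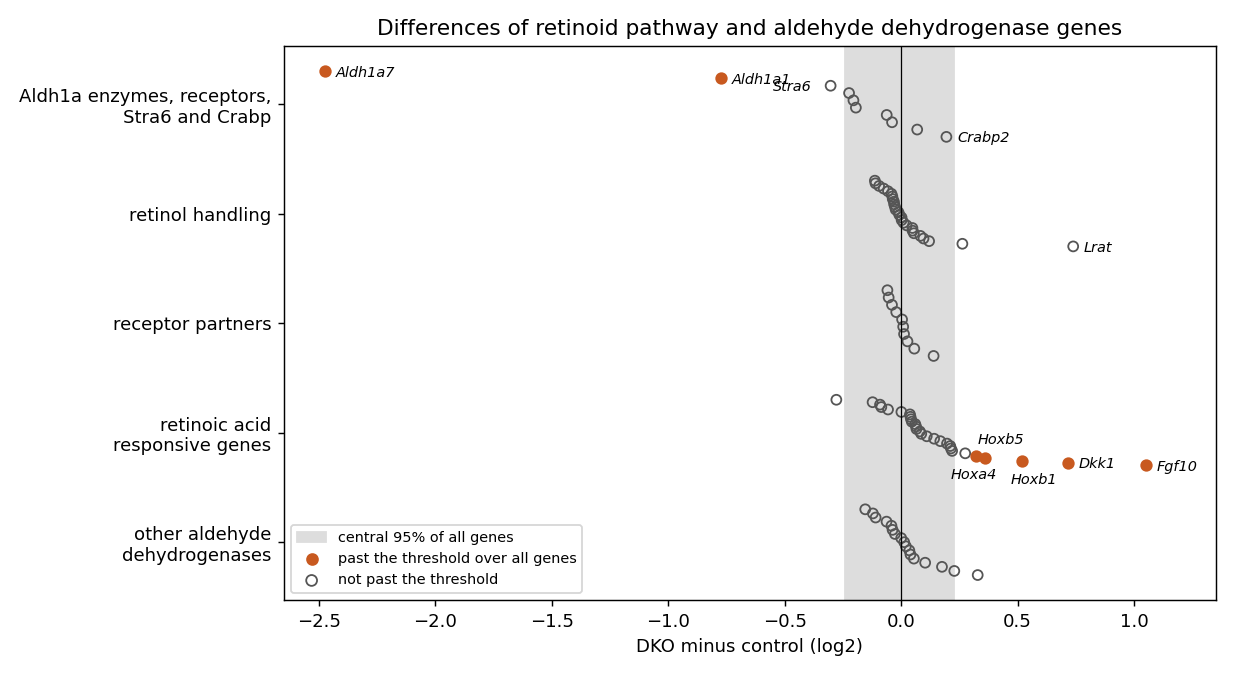
Log2 differences, DKO minus control (x axis), of the 10 genes and of 4 lists (rows, sorted by value within a row). Filled orange points passed an adjusted p of 0.05 over all genes, open points did not, and the grey band is the central 95% of all genes, from -0.24 to 0.23. Of the called genes, Aldh1a7 and Aldh1a1 lie to the left of the band and Fgf10, Dkk1, Hoxb1, Hoxb5 and Hoxa4 to the right. Stra6 and Ret, to the left, and Lrat, Adh1, Tshz1, Aldh6a1 and Aldh1l1, to the right, lie outside it without passing the test.

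Outside the Aldh1a group, none of 17 other aldehyde dehydrogenase genes was called by limma, and their median difference was 0.01. An unadjusted p under 0.05 was found for 3, against 2559 of all 19938 genes. The largest difference was that of Aldh6a1, a mitochondrial enzyme of valine breakdown, which was 8.82, 8.93 and 8.89 in the controls and 9.36, 9.01 and 9.25 in the DKO samples (0.33, SE 0.08, adjusted p = 0.102). Without DKO 2 it passed (0.43, adjusted p = 0.00483). Aldh1l1, an enzyme of folate metabolism that was under the olfactory receptor percentile on all arrays, stood at 0.23 (SE 0.08, adjusted p = 0.263) and Aldh7a1, an enzyme of lysine breakdown, at 0.18 (SE 0.06, adjusted p = 0.249). The lowest of the 17, at -0.15, was Aldh3a2, an enzyme of fatty aldehydes named after its value was seen. The 17 differences thus ran from -0.15 to 0.33.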

How the data were processed

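Total RNA (100 ng) from each of 6 lung samples was amplified, labelled with biotin and measured on 1 MoGene 1.1 ST array (Affymetrix), per the labels. The deposited values are on a log2 scale, 1 for each of 35556 probe sets and array. The log base is not written in the table and was taken from the method and the range of values. The tools oligo, RMA and limma are listed in the submitters' processing notes, without versions or settings. RMA makes the arrays' distributions alike, so a change common to all genes cannot be seen, and the number of arrays limits the precision. No scanner file was used, and the genome build is not given in the sources used here.

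Probe sets were named from the platform annotation, with symbols updated by Entrez identifier against RefSeq GRCm38.p6 (19856 of 19938 genes matched). It lists 1 gene for 21789 probe sets, which were used, several for 1621, and 12146 were unnamed here. The brightest probe set stood for each of the 999 genes with several. Samples were grouped by their titles. The main test was limma 3.58.1 (R 4.3.3; lmFit and eBayes, two-sided, group as the single term), and p-values were adjusted by Benjamini-Hochberg over all 19938 genes, with a threshold of 0.05. The fit and the motif search were checked on simulated data. Alignments used Biopython 1.88.

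The 10 genes, the 4 pathway and enzyme lists and the 11 marker lists were chosen with earlier results of these data known. Named genes were the 10, Hdac1 and Hdac2, up to 8 called genes of each pathway or enzyme list or the 3 with the largest change where none was called, and the nearest profiles without predicted names. Other names were chosen after their values were seen. Some genes of the pathway lists were not analysed here and are not reported, and the counts cover those measured. The alternatives are 17 other settings of the fit, the normalization, the probe rule, the filter and the samples.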

Additional observations from a re-analysis of the deposited data

How the results depend on the processing

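The 10 genes kept their direction under each of the 17 alternatives that could give a value. Of the other pathway and enzyme genes named, 4 with differences near 0 changed sign, none past the threshold: Cyp26b1 (0.0074) and Rxrg (0.0223) with array weights, and, with 1 array left out, Dhrs3 (-0.0213 to 0.0146), Cyp26a1 (-0.0602 to 0.0155), Cyp26b1 (-0.0376 to 0.0237) and Rxrg (-0.0673 to 0.0628). Aldh1a7 ranged from -2.54 to -2.42 and passed the threshold in all 16 (the filter on the dimmest 50% of genes removed it). Aldh1a1 ranged from -0.83 to -0.68 and passed in 14 of 15 (both filters removed it), failing with ordinary least squares. Stra6 passed in 5 of 17, Rarb and Crabp2 in 2 each (an intensity trend and array weights), and Rarg and Crabp1 in 1 each. Of the 10 genes, 5 were called lower and 1 higher with an intensity trend, the same numbers with array weights, 1 lower with ordinary least squares and 1 lower (Stra6) without the dimmest 50% of genes. Leaving out 1 array at a time gave 2 to 3 lower and 0 higher. Since this contrast chose the 10 genes, their counts describe the settings and are no test of the genes.

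Retinoid pathway genes called higher, 5 of 64, became 10 with an intensity trend, 10 with array weights, 8 without the dimmest 50% of genes, 2 with every probe tested, 0 with ordinary least squares, and 2 to 5 leaving out 1 array at a time. Called lower, 0 became 1 with array weights. Of the other aldehyde dehydrogenases, 0 higher became 1 with an intensity trend, 3 with array weights, 1 without the dimmest 50% of genes and 0 to 1 leaving out 1 array, and 0 lower became 1 with array weights. Over all genes, the 206 higher became 337 with an intensity trend, 4 with ordinary least squares, 1006 with array weights, 82 with every probe and 83 to 385 leaving out 1 array. The 275 lower became 12, 997 and 126 with ordinary least squares, array weights and every probe, and 112 to 426 leaving out 1 array. The every-probe numbers count probes. The cause was not tested.

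The replicate numbers did not pair the samples: same-numbered deviations from the group means correlated at -0.06, 0.05 and 0.16. With the replicate block, 175 genes were higher and 231 lower, 2 of the 10 genes were called, and the calls of Hoxb5 (adjusted p = 0.0516) and Hdac1 (0.0507) were lost.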
